A study of Mus musculus with 4 samples.

Results

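The antioxidant and glutathione genes described here are Nfe2l2, Keap1, Hmox1, Nqo1, Gclc, Gclm, Txnrd1, Srxn1, Gsr and Prdx1, the core of the NRF2 pathway with well-known target genes. They were taken as every probe set whose only gene symbol, in the annotation of the array platform, was one of these names. That gave 19 probe sets for 9 genes, of 18193 genes named on the arrays. Prdx1, a peroxiredoxin, had 5 probe sets that also named Gm21399, so it was not analysed here.

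RNA was measured in mouse bone marrow cells on 4 Affymetrix arrays, 1 array per group. The starting cells were LSK cells, which lack lineage markers, carry both c-kit and Sca-1, and include blood stem and progenitor cells. One group carried a β-catenin retrovirus and was collected at day 3. LSK cells transduced with β-catenin and grown on for 50 or for 300 days made up a further pair of groups, which the labels call DKmix. The control carried a retrovirus for eGFP, a green fluorescent protein, and was collected at day 3. The protocols give a medium with serum, IL-11, Flt3, SCF and IL-3. Mouse strain, age, number of animals, form of β-catenin and vector promoter are not stated in the labels. The series set out to find genes behind the long-term growth of β-catenin-transduced blood stem cells. Each group being 1 array, differences have no replicate check and carry no p-value, and precision is limited by the number of arrays.

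NRF2, the product of Nfe2l2, is a transcription factor that KEAP1 holds in the cytoplasm and hands to a ubiquitin ligase for degradation. Oxidants and electrophiles react with KEAP1, NRF2 then builds up, pairs with a small MAF protein and binds antioxidant response elements. Its targets make glutathione, keep glutathione and thioredoxin reduced, and detoxify quinones and haem. Blood stem cells are known for low levels of reactive oxygen, and mature neutrophils and macrophages for making them on purpose.

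Stretches of 4 promoters are shown because they hold the letters of elements that NRF2 or related factors can bind. They were read from the RefSeq promoter table, build GRCm38.p6, which spans 250 bases before to 50 after each transcript start, and each is written 5′ to 3′ along its gene. Capitals mark TGACNNNGC, the antioxidant response element core, searched on both strands. In Srxn1 they mark TGAGTCA, a motif added after the sequences were seen.
Nfe2l2, chr2:75704870-75704913, minus strand: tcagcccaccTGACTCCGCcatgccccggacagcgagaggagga
Gclm, chr3:122245398-122245456, plus strand: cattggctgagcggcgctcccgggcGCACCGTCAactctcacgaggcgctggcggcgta
Txnrd1, chr10:82859089-82859147, plus strand: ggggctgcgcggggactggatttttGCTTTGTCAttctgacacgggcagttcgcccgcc
Srxn1, chr2:152105397-152105510, plus strand: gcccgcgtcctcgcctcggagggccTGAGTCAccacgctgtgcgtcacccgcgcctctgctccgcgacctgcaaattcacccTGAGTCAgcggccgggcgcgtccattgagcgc

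The table matched 7 of the 10 genes with 9 windows, and Hmox1, Gclc and Gsr had no entry. TGACNNNGC was found in 5 of the 7 genes, those shown and Prdx1, and in 12.4% of all 32851 windows. In Gclm and Txnrd1 the match lies on the opposite strand, so the capitals read as its reverse complement. In Srxn1 the core match lies after the start, outside the stretch shown. TGAGTCA occurred in 5.2% of all windows and had 2 matches each in Srxn1 and Prdx1, 1 of which overlapped the core in Prdx1. The longer 10-base element of MAF and CNC factors occurred in 0.155% of windows and in none of these genes. The Keap1 and Nqo1 windows held none of the 3 motifs. A match is a run of letters in these windows and was not tested as a binding site.

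The values are signal intensities. A floor of 48.3, the pooled median intensity of the arrays, replaced every weaker value before ratios were formed. Where 1 of the arrays sat at the floor, the ratio is a bound and is written "at least". Calls of higher or lower needed 2-fold or more. Where a gene had several probe sets, the brightest over the 4 arrays stood for it, and the others of the 9 antioxidant genes are given beside it. The only error within the data is the disagreement between probe sets of the same gene. Its SD on the log2 scale was 0.64 to 0.91 in the 5 comparisons of 2 arrays. It was taken from 3446 to 3624 genes with at least 2 probe sets above the floor on both arrays, using the 2 brightest. Genes with 1 probe set, such as Nqo1, do not enter this SD, and it does not cover differences between cultures.

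The antioxidant genes did not move as a block. On their brightest probe sets, Nqo1 was at least 2-fold higher, and Gsr at least 2-fold lower, on both DKmix arrays than on either day 3 array. The other probe set of Gsr was not lower at day 300 than in β-catenin day 3 cells. The 2-fold gap of Nqo1 depended on how the arrays were scaled. Txnrd1 was higher in β-catenin than in eGFP cells at day 3, and Nfe2l2 was highest in DKmix cells at day 300, also on their brightest probe sets. The 2-fold ratio of Nfe2l2 at day 300 over β-catenin day 3 depended on the scaling as well. The glutathione synthesis genes Gclc and Gclm and the sensor Keap1 stayed within 2-fold over the 4 arrays on their brightest probe sets. The range over the arrays reached 2-fold in 6 of the 9 genes, against 55.2% of all genes, and the median log2 range was 1.5 for the 9 genes and 1.09 for all genes.

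**Figure D1:**
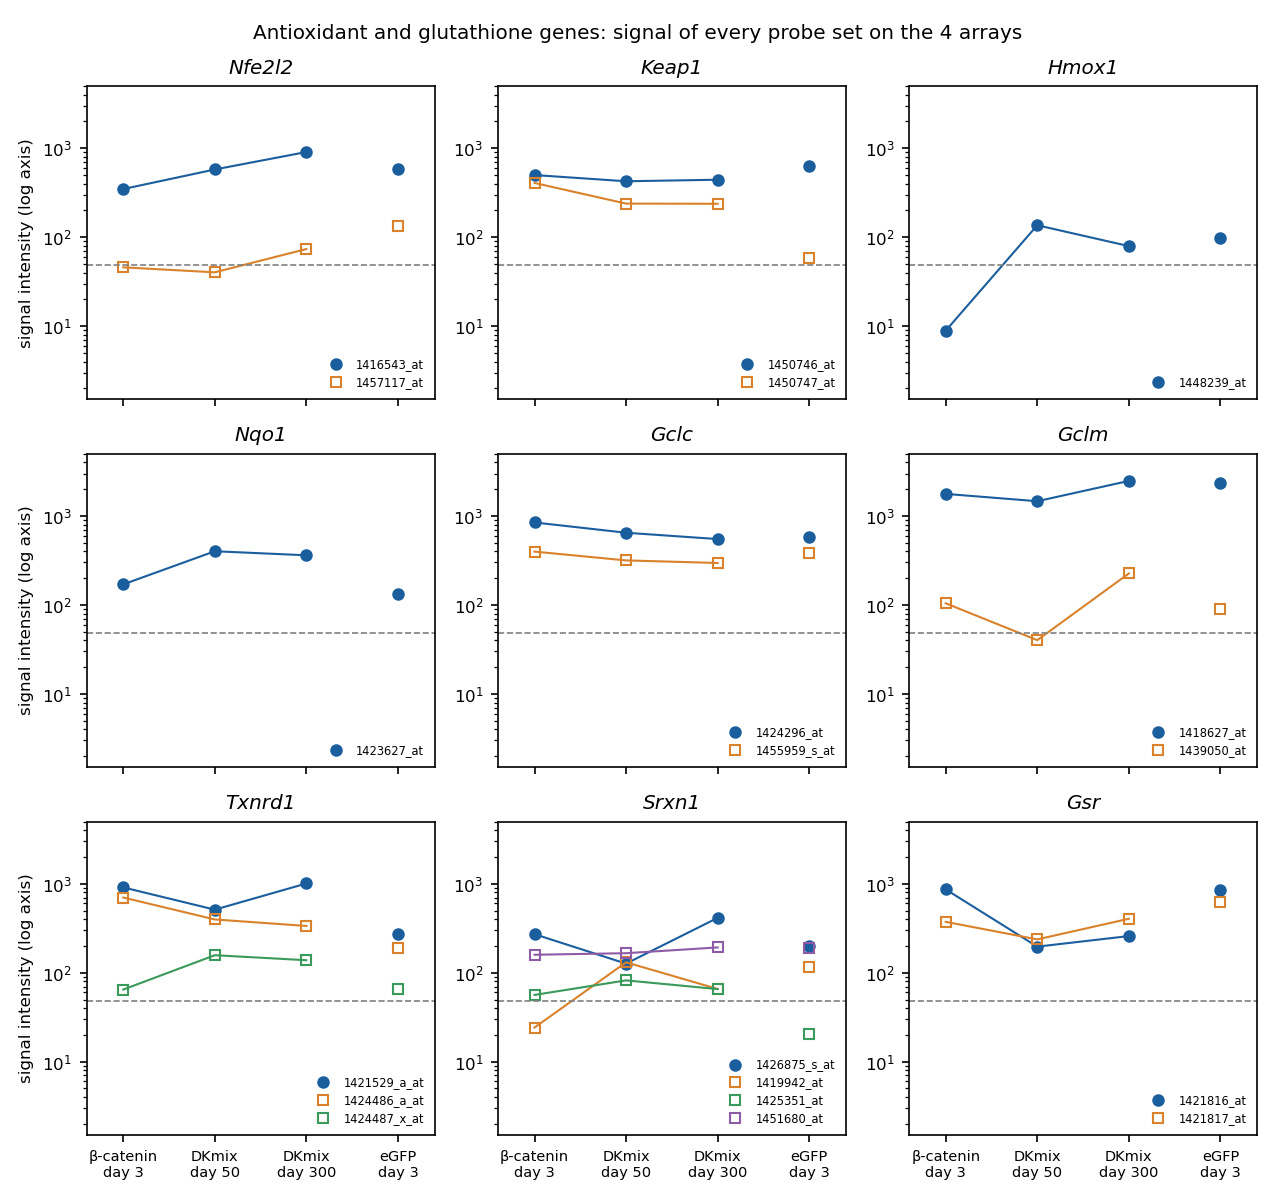
Signal intensity (log axis) of every probe set of the 9 genes on the β-catenin day 3, DKmix day 50, DKmix day 300 and eGFP day 3 arrays. Filled circles mark the probe set that stands for the gene, open squares the others, and the dashed line the floor of 48.3. Each point is 1 array, and the lines join β-catenin-transduced cells by time.

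Some facts of the arrays touch these values. The ratio of the 3′ to the 5′ Gapdh control probe set, which grows when RNA is short or poorly copied, was 1.18 for β-catenin day 3, 4.96 for DKmix day 50, 1.06 for DKmix day 300 and 4.14 for eGFP day 3. The same ratio for the actin control was 1.32, 3.41, 1.2 and 1.83 in that order of arrays. The deposited intensities had been scaled to the same trimmed mean on each array. Setting the arrays level on the hybridisation controls instead moved the log2 ratio of signals above the floor by 0.40 for β-catenin over eGFP. Ratios with an array at the floor could move by another amount. The shift against β-catenin day 3 was −0.94 for DKmix day 50 and −1.04 for DKmix day 300. It was −0.54 for DKmix day 50 over eGFP and −0.11 between the DKmix arrays, day 300 over day 50. The intensities of cell type markers also differed. Summed over 14 mast cell markers, the intensity was 3937 in β-catenin day 3, 180250 in DKmix day 50, 78860 in DKmix day 300 and 938 in eGFP day 3 cells, with 8, 11, 11 and 9 markers above the floor. Over 13 neutrophil markers it was 13509 in β-catenin day 3, 745 in DKmix day 50, 230 in DKmix day 300 and 103671 in eGFP day 3 cells, with 11, 3, 1 and 13 above the floor. Over 13 macrophage and dendritic cell markers it was 26452, 758, 6061 and 19841 in the same order of arrays, with 13, 6, 5 and 10 above the floor. Most of the DKmix day 300 sum was Cd68 alone, which read 191.6 in DKmix day 50 and 5406.9 in DKmix day 300 cells. The defining neutrophil genes S100a8, Elane and Mmp8 were not above the floor on either DKmix array. Over 9 stem and progenitor markers the sum was 6058 in β-catenin day 3, 7987 in DKmix day 50, 6858 in DKmix day 300 and 2937 in eGFP day 3 cells, with 8, 6, 4 and 6 above the floor. Thy1 read 2360.6 in β-catenin day 3, 10.1 in DKmix day 50, 3.7 in DKmix day 300 and 1188.5 in eGFP day 3 cells. In that order Cd48 read 1104.9, 655.7, 34.0 and 449.6, and Cd34 read 804.1, 2068.5, 4292.7 and 111.8. The stem and progenitor sum thus joins markers that moved in opposite directions. Kit is counted among both the mast cell and the stem and progenitor markers. Of the surface proteins that bear on the LSK label, Kit had 82.9 in β-catenin day 3, 3459.5 in DKmix day 50, 1262.7 in DKmix day 300 and 55.8 in eGFP day 3 cells, Flt3 was below the floor on all 4 arrays, and Ly6a was not analysed here. In bulk samples such as these, fewer cells of a type and less RNA per cell cannot be told apart. The part of RNA quality and cell makeup in the results was not tested.

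Nfe2l2, the NRF2 gene, read 347.6 in β-catenin day 3, 576.6 in DKmix day 50, 906.1 in DKmix day 300 and 585.1 in eGFP day 3 cells. It was lowest in β-catenin cells at day 3 and higher at each later time, with the eGFP value close to that of day 50. The log2 ratio was 1.38, or 2.61-fold, for DKmix day 300 over β-catenin day 3, and −0.75 for β-catenin over eGFP. The first of these ratios fell short of 2-fold on the hybridisation control scale and with the mean of both probe sets. The other probe set read 45.8 in β-catenin day 3, 40.3 in DKmix day 50, 73.6 in DKmix day 300 and 134.3 in eGFP day 3 cells. It was also lower in β-catenin than in eGFP cells, by at least 2.78-fold, and higher at day 300 than in β-catenin day 3 cells, by at least 1.52-fold. The eGFP array, not day 300, was its highest.

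Keap1, the sensor that binds NRF2, read 499.2 in β-catenin day 3, 425.0 in DKmix day 50, 442.3 in DKmix day 300 and 628.7 in eGFP day 3 cells. No pair of arrays differed by 2-fold on this probe set, and its range was 1.48-fold. The other probe set read 406.9 in β-catenin day 3, 238.4 in DKmix day 50, 237.4 in DKmix day 300 and 58.0 in eGFP day 3 cells. It put β-catenin 7.02-fold above eGFP, a log2 ratio of 2.81 against −0.33 on the brighter probe set. No direction for Keap1 between β-catenin and eGFP is therefore given, while both probe sets were lower in both DKmix cultures than in β-catenin day 3 cells by less than 2-fold.

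Gclc, the catalytic subunit of glutamate-cysteine ligase, read 845.2 in β-catenin day 3, 647.9 in DKmix day 50, 549.9 in DKmix day 300 and 584.3 in eGFP day 3 cells. The other probe set read 397.7, 316.6, 296.2 and 381.1 in the same order of arrays. Both were highest in β-catenin day 3 cells and lowest at day 300, within ranges of 1.54-fold and 1.34-fold, which made Gclc the steadiest of the 7 genes with several probe sets by the wider of its ranges.

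Gclm, the modifier subunit of the same enzyme, read 1770.5 in β-catenin day 3, 1464.5 in DKmix day 50, 2477.3 in DKmix day 300 and 2350.0 in eGFP day 3 cells. The weaker probe set read 104.3, 40.2, 225.9 and 89.9 in the same order. Both were lowest at day 50 and highest at day 300. For DKmix day 300 over DKmix day 50 the ratio was 1.69-fold on the brighter and at least 4.68-fold on the weaker probe set. For β-catenin over eGFP they pointed in opposite directions, with log2 ratios of −0.41 and 0.21.

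Gsr, glutathione reductase, which turns oxidised glutathione back to the reduced form, read 863.3 in β-catenin day 3, 196.4 in DKmix day 50, 258.1 in DKmix day 300 and 851.7 in eGFP day 3 cells. Both DKmix arrays lay below both day 3 arrays, and the day 3 arrays were nearly equal. The DKmix value was 4.40-fold lower than that of β-catenin day 3 at day 50 and 3.34-fold lower at day 300, log2 ratios of −2.14 and −1.74 against probe set SDs of 0.81 and 0.64. The gap between the higher DKmix and the lower day 3 value was 3.30-fold. The other probe set read 373.1 in β-catenin day 3, 236.9 in DKmix day 50, 403.8 in DKmix day 300 and 625.8 in eGFP day 3 cells. It was lower at day 50, by 1.57-fold against β-catenin and 2.64-fold against eGFP day 3, but at day 300 it was 1.08-fold higher than in β-catenin day 3 cells. The lower value of Gsr at day 300 thus rests on 1 of its 2 probe sets, and with the mean of both the log2 ratio was −0.81, short of 2-fold.

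Txnrd1, the cytosolic thioredoxin reductase, read 909.3 in β-catenin day 3, 511.3 in DKmix day 50, 1007.0 in DKmix day 300 and 275.6 in eGFP day 3 cells. Its lowest value was that of the eGFP control. β-catenin was 3.30-fold above eGFP at day 3, a log2 ratio of 1.72 against a probe set SD of 0.64. A second probe set read 699.7 in β-catenin day 3, 396.8 in DKmix day 50, 335.4 in DKmix day 300 and 188.9 in eGFP day 3 cells, a 3.70-fold ratio of β-catenin over eGFP. The third, of the _x_at kind whose probes can match other transcripts, read 64.7, 157.3, 138.2 and 66.1 in the same order and put β-catenin level with eGFP. Against β-catenin day 3 the probe sets went apart at day 300, with 2.09-fold lower on the second, 2.14-fold higher on the third and 1.11-fold higher on the brightest. The 3′ to 5′ Gapdh ratios of the β-catenin and eGFP arrays, given above, differ in this comparison.

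Srxn1, sulfiredoxin, which repairs overoxidised peroxiredoxins, read 271.2 in β-catenin day 3, 126.5 in DKmix day 50, 413.2 in DKmix day 300 and 197.7 in eGFP day 3 cells on its brightest probe set. This probe set was lowest at day 50 and highest at day 300, a 3.27-fold ratio of day 300 over day 50. It is of the _s_at kind, shared between transcripts, and the others did not follow it. One read 159.2, 165.7, 192.4 and 191.8 in β-catenin day 3, DKmix day 50, DKmix day 300 and eGFP day 3 cells, almost level. Another read 24.2, 130.9, 65.7 and 116.5 in that order, so that day 50 was at least 2.71-fold above β-catenin day 3, where the brightest probe set put it 2.14-fold below. The last read 56.3, 82.0, 65.5 and 20.6. All 4 probe sets put DKmix day 300 above β-catenin day 3, by 1.16-fold to 1.52-fold with 1 ratio a bound, and they gave no shared direction in the other comparisons.

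Nqo1, the quinone reductase, had 1 probe set. It read 170.4 in β-catenin day 3, 401.4 in DKmix day 50, 361.4 in DKmix day 300 and 131.5 in eGFP day 3 cells. Both DKmix values stood above both day 3 values, with a gap of 2.12-fold between the lower DKmix and the higher day 3 value. DKmix day 50 was 2.36-fold and DKmix day 300 was 2.12-fold above β-catenin day 3, and DKmix day 50 was 3.05-fold above eGFP day 3. The log2 ratios of 1.24, 1.08 and 1.61 compare with probe set SDs of 0.81, 0.64 and 0.71. The 2.12-fold ratio is between arrays with like Gapdh and actin control ratios. The arrays of the 3.05-fold ratio are alike on Gapdh, but their actin ratios were 3.41 for DKmix day 50 and 1.83 for eGFP day 3. What RNA quality adds to these ratios was not tested. On the hybridisation control scale the log2 ratio of Nqo1 against β-catenin day 3 was 0.30 at day 50 and 0.04 at day 300. The height of Nqo1 in DKmix cells is thus relative to the bulk of genes on each array. With quantile normalization the log2 ratio at day 300 was 0.99, just under 2-fold.

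Hmox1, haem oxygenase, which breaks haem down, also had 1 probe set. It read 8.9 in β-catenin day 3, 136.2 in DKmix day 50, 79.4 in DKmix day 300 and 97.2 in eGFP day 3 cells. It was below the floor in β-catenin day 3 cells and not far above it elsewhere. β-catenin was at least 2.01-fold below eGFP, and DKmix day 50 was at least 2.82-fold and day 300 at least 1.64-fold above β-catenin day 3. Both calls were lost under a floor of 134.6. With a floor of 11.0 the log2 ratio of β-catenin over eGFP was −3.14. That ratio is still a bound, because the β-catenin value lay below this floor too.

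**Figure D2:**
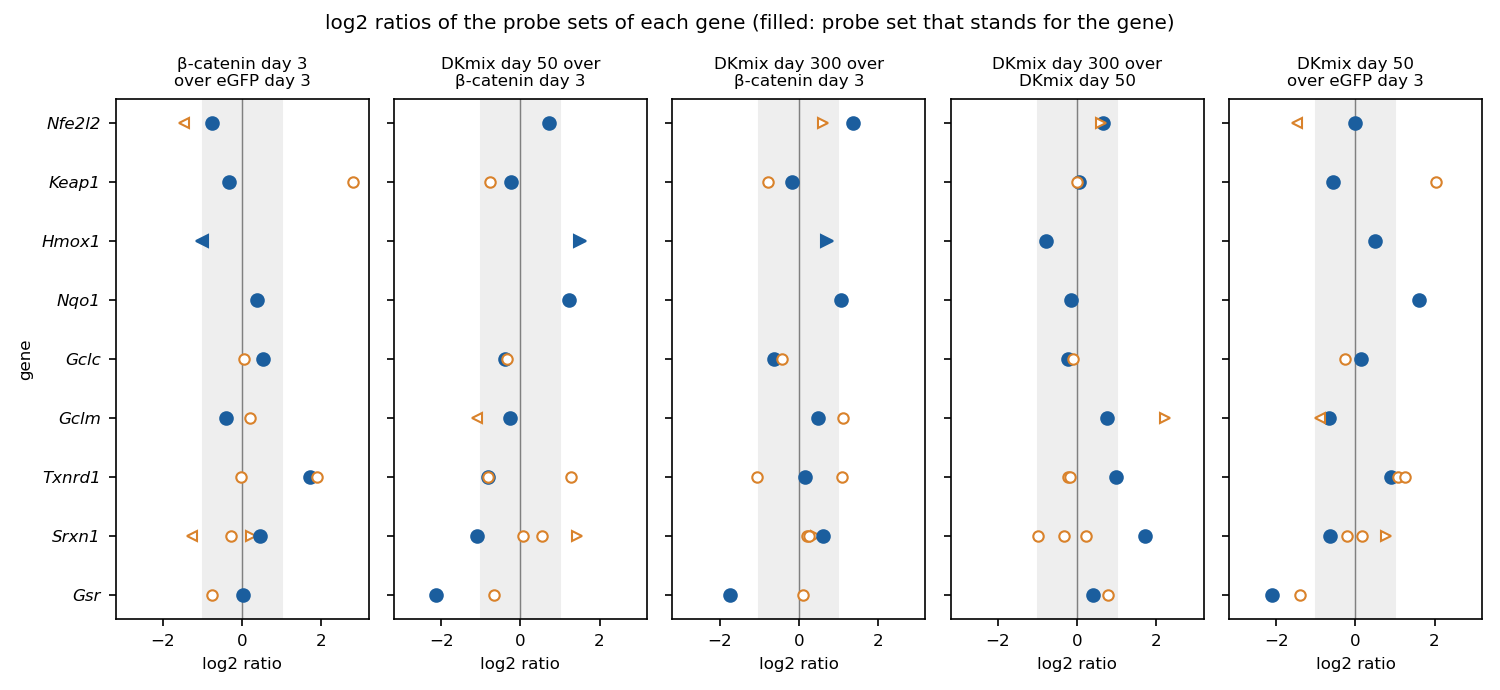
Log2 ratio of every probe set of the 9 genes in the comparisons of 2 arrays, with genes down the page. Filled marks show the probe set that stands for the gene, open marks its other probe sets, triangles bounds, and the grey band the range within 2-fold; probe sets of Keap1 lie on both sides of 0 for β-catenin over eGFP, and those of Gsr on 1 side for DKmix day 50.

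For β-catenin over eGFP at day 3, 1 of the 9 genes was higher, Txnrd1, where 10.2% of all 13365 genes measured were higher. Also 1 of 9 was lower, Hmox1, where 9.42% of all genes were. The median log2 ratio of the 9 genes was 0.02, and −0.01 over all genes. All probe sets gave 1 direction in 2 of the 7 genes with several, Nfe2l2 and Gclc. These shares are near those of all genes.

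For DKmix day 50 over β-catenin day 3, Hmox1 and Nqo1 were higher, 2 of 9 against 16.1% of all genes, and Srxn1 and Gsr lower, 2 of 9 against 15.7%. The median was −0.27, and 0.07 over all genes. On the hybridisation control scale 1 of the 9 was higher and 6 were lower, and over all genes 700 were higher and 5593 lower. Probe sets gave 1 direction in Keap1, Gclc, Gclm and Gsr, and Nfe2l2 had only 1 probe set measured there.

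At day 300 of DKmix culture, against β-catenin day 3, Nfe2l2 and Nqo1 were higher, 2 of 9 against 14.0% of all genes. Gsr was lower, 1 of 9 against 14.4%. The median was 0.48, and −0.08 over all genes, and on the hybridisation control scale none was higher, 3 were lower and the median was −0.56. Over all genes on that scale 559 were higher, 6049 were lower and the median was −0.9. Between the DKmix cultures, day 300 over day 50, Srxn1 was higher, 1 of 9 against 15.1% of all genes, and none was lower, against 15.9%. For DKmix day 50 over eGFP day 3, Nqo1 was higher, 1 of 9 against 15.6%, and Gsr lower, 1 of 9 against 15.0%. These comparisons share arrays and are not independent of each other.

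Genes with both DKmix arrays at least 2-fold above both day 3 arrays made up 2.78% of 15292 genes, and those at least 2-fold below made up 2.68%. Nqo1 was the 1 of 9 above and Gsr, on the brighter of its probe sets, the 1 of 9 below.

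In the rest of the pathway, 11 lists held 154 genes, of which 141 had a probe set of their own. Both DKmix arrays stood at least 2-fold above both day 3 arrays for 7 of 134 measured genes, and below for 5, against 2.78% and 2.68% of all genes. On the hybridisation control scale the balance turned, with 2 of 133 above and 20 below. It turned over all genes as well, with 139 above and 1524 below. The widest gap above was that of Anpep, an aminopeptidase that takes part in glutathione breakdown, at 145.1 in β-catenin day 3, 2034.7 in DKmix day 50, 935.2 in DKmix day 300 and 15.5 in eGFP day 3 cells. It is also a myeloid surface marker. Sesn3, a sestrin, read 54.6, 478.9, 354.3 and 63.6 in that order, with a gap of 5.57-fold. Its other probe set read 111.8, 219.6, 136.2 and 40.7, with DKmix on the same side by less. Hpgds, a glutathione-dependent prostaglandin D synthase known in mast cells, read 123.7 in β-catenin day 3, 440.9 in DKmix day 50, 375.2 in DKmix day 300 and 68.4 in eGFP day 3 cells. The thioredoxin inhibitor Txnip read 643.7, 3073.6, 5633.7 and 1259.7 in β-catenin day 3, DKmix day 50, DKmix day 300 and eGFP day 3 cells. Its other probe set read 141.9, 301.5, 3673.5 and 284.7, so that DKmix day 50 lay close to eGFP there. The others were Prdx4, Ugdh and Cbr3, and the other probe sets of Prdx4 did not share 1 direction. Those below were Cybb, the catalytic subunit of the phagocyte NADPH oxidase, with Mgst2, Abcc4, Mthfd1 and Chac1. Cybb read 1162.5 in β-catenin day 3, 80.5 in DKmix day 50, 27.7 in DKmix day 300 and 2637.9 in eGFP day 3 cells, and its gap was 14.4-fold. Its other 2 probe sets were also lower in both DKmix than in β-catenin day 3 cells. The mast cell marker sums given above were higher, and the neutrophil sums lower, on the same arrays.

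**Figure D3:**
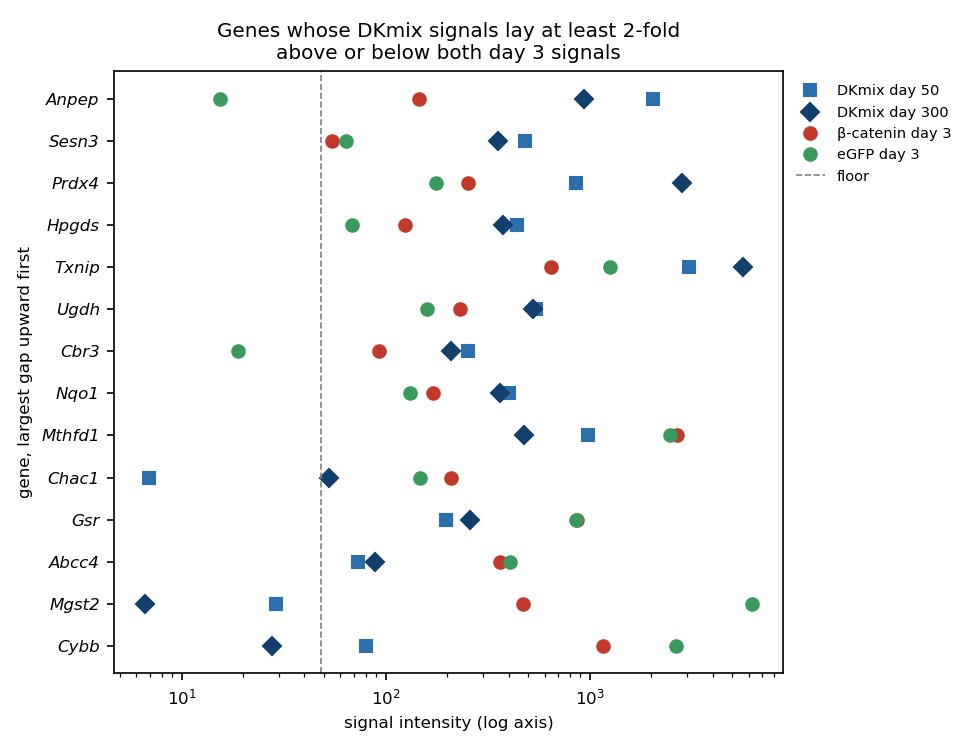
Signal intensity (log axis) of the antioxidant and pathway genes whose 2 DKmix arrays both lie at least 2-fold above or below both day 3 arrays, 1 point per array. The genes run down the page from the largest gap upward, with Nqo1 the last of those above, Gsr among those below, and the floor of 48.3 dashed.

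Among the partners and regulators of NRF2, 4 of 13 genes measured were higher and 1 lower in β-catenin than in eGFP day 3 cells, against 10.2% and 9.42% of all genes. The list's median log2 ratio was −0.09, near the −0.01 over all genes. Sqstm1, the p62 protein that draws KEAP1 into autophagy, read 3471.9 in β-catenin day 3, 8144.7 in DKmix day 50, 5175.5 in DKmix day 300 and 698.9 in eGFP day 3 cells. On this probe set it was lowest in the eGFP control, with a 4.97-fold ratio of β-catenin over eGFP. The other, weaker probe set read 32.9, 88.9, 119.8 and 106.6 in the same order, with β-catenin at the floor and below eGFP, so no direction for Sqstm1 in this comparison is given. Dpp3, which can compete with NRF2 for KEAP1, was 5.12-fold higher in β-catenin than in eGFP cells, at 827.9 against 161.7, and read 256.7 in DKmix day 50 cells. Its other probe set was above the floor on the DKmix day 50 array only, at 118.3, opposite to the lower value of the first there. Nfe2l1, the NRF1 factor, was 2.96-fold higher, at 607.1 in β-catenin and 205.4 in eGFP cells. Mafk, a small MAF partner, read 413.0 in DKmix day 50 and 150.2 in β-catenin day 3 cells. Against β-catenin day 3, 3 of 13 genes of this list were higher and 3 lower at day 50, where 16.1% and 15.7% of all genes were, with a median of 0.20. At day 300, 1 of 14 was higher and 1 lower, where 14.0% and 14.4% of all genes were, with a median of 0.38. On the hybridisation control scale none was higher at either time, 5 and 3 of 13 were lower, and the medians were −0.74 and −0.61. Over all genes on that scale 700 and 559 were higher, 5593 and 6049 lower, and the medians were −0.73 and −0.9.

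Among quinone and aldehyde detoxification genes other than Nqo1, 5 of 9 were higher and 1 lower in DKmix day 50 than in β-catenin day 3 cells, against 16.1% and 15.7% of all genes, with a median log2 ratio of 1.12. At day 300, 6 of 10 were higher and 2 lower, against 14.0% and 14.4%, and the median was 1.16. With quantile normalization the medians were 0.65 at day 50 and 1.1 at day 300. Then 4 of 9 and 6 of 10 genes were higher, where 2165 and 1774 of all genes were. Lowess centring gave medians of 0.68 and 1.17 with the same counts in the list. On the hybridisation control scale the medians were 0.18 and 0.12, with 1 higher and 2 lower at day 50 and 2 higher and 3 lower at day 300. Over all genes the medians on that scale were −0.73 and −0.9. There 700 genes were higher and 5593 lower at day 50, and 559 higher and 6049 lower at day 300. Nqo2, a second quinone reductase, read 54.7 in β-catenin day 3, 462.7 in DKmix day 50, 121.6 in DKmix day 300 and 250.8 in eGFP day 3 cells. Its other 2 probe sets were also higher in DKmix day 50 than in β-catenin day 3 cells, with log2 ratios of 0.78 and 0.51, and disagreed in sign at day 300. Aldh3a1, an aldehyde dehydrogenase, read 93.9, 139.7, 2227.3 and 9.1, and its high value was on the day 300 array alone. Osgin1, an oxidative stress-induced growth inhibitor, read 125.6, 309.3, 324.8 and 186.9, with both DKmix values above both day 3 values.

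Glutathione transferases, which attach glutathione to foreign compounds, were compared between the DKmix cultures. In DKmix day 300 over day 50, 8 of 17 genes measured were higher and 1 lower, against 15.1% and 15.9% of all genes, with a median log2 ratio of 0.96. On the hybridisation control scale 8 of 16 were higher and 1 lower, where 1574 of all genes were higher and 1847 lower. Gstm1 read 483.6 in β-catenin day 3, 192.8 in DKmix day 50, 1629.0 in DKmix day 300 and 1798.9 in eGFP day 3 cells. A second probe set of Gstm1 read 370.8, 232.3, 1570.0 and 1099.8, and the others were below the floor in both DKmix cultures. Gstm5 read 157.6, 65.1, 1023.4 and 196.4, and day 300 was 15.7-fold above day 50. Gstt1 read 150.1, 5.6, 795.6 and 363.8. Each was lowest at day 50. Members of the Gstm and Gstt families are close in sequence, and probe sets can read more than 1 of them.

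NADPH, the reducing power that Gsr and Txnrd1 both use, comes from a further list. In DKmix day 300 over β-catenin day 3, 2 of 15 of its genes were higher and 7 lower, against 14.0% and 14.4% of all genes, with a median log2 ratio of −0.73. With the hybridisation controls set level, 1 was higher and 11 were lower, with a median of −1.77. That scale also moved the bulk of genes down, to 6049 lower calls against 559 higher ones and an all-gene median of −0.9. Pgd, of the pentose phosphate pathway, read 4014.8 in β-catenin day 3, 3157.9 in DKmix day 50, 1058.3 in DKmix day 300 and 12381.8 in eGFP day 3 cells. All 4 of its probe sets were lower at day 300 than in β-catenin day 3 cells. Me1, the cytosolic malic enzyme, read 222.5, 153.5, 1561.6 and 65.1 in the same order, and Me2, the mitochondrial one, 561.4, 498.0, 2052.1 and 389.2. Both were highest at day 300, and their other probe sets were also higher at day 300 than in β-catenin day 3 cells, by as little as 0.08 on the log2 scale for Me2. In the phagocyte NADPH oxidase list, 4 of 7 genes were lower and none higher in β-catenin than in eGFP day 3 cells, against 9.42% and 10.2% of all genes, with a median of −1.01. Scaled to the hybridisation controls, 2 of 7 were lower, with a median of −0.78, where the median over all genes was 0.34. On the deposited scale Ncf1, counted as lower, had a log2 ratio of −1.01 on its brightest probe set. Its others gave 1.57 and −0.14, so no direction for Ncf1 in this comparison is given. Cybb gave −1.18 on its brightest probe set, and 0.14 and −1.24 on its others. The neutrophil marker sum was lower in β-catenin cells as well, while the macrophage and dendritic cell sum was higher, at 26452 against 19841. Slc7a11, the cystine carrier that feeds glutathione synthesis, read 101.1 in β-catenin day 3, 81.6 in DKmix day 50, 80.7 in DKmix day 300 and 255.4 in eGFP day 3 cells, and was highest in the eGFP control. Its other probe set was above the floor on the eGFP array only, at 49.4.

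**Figure D4:**
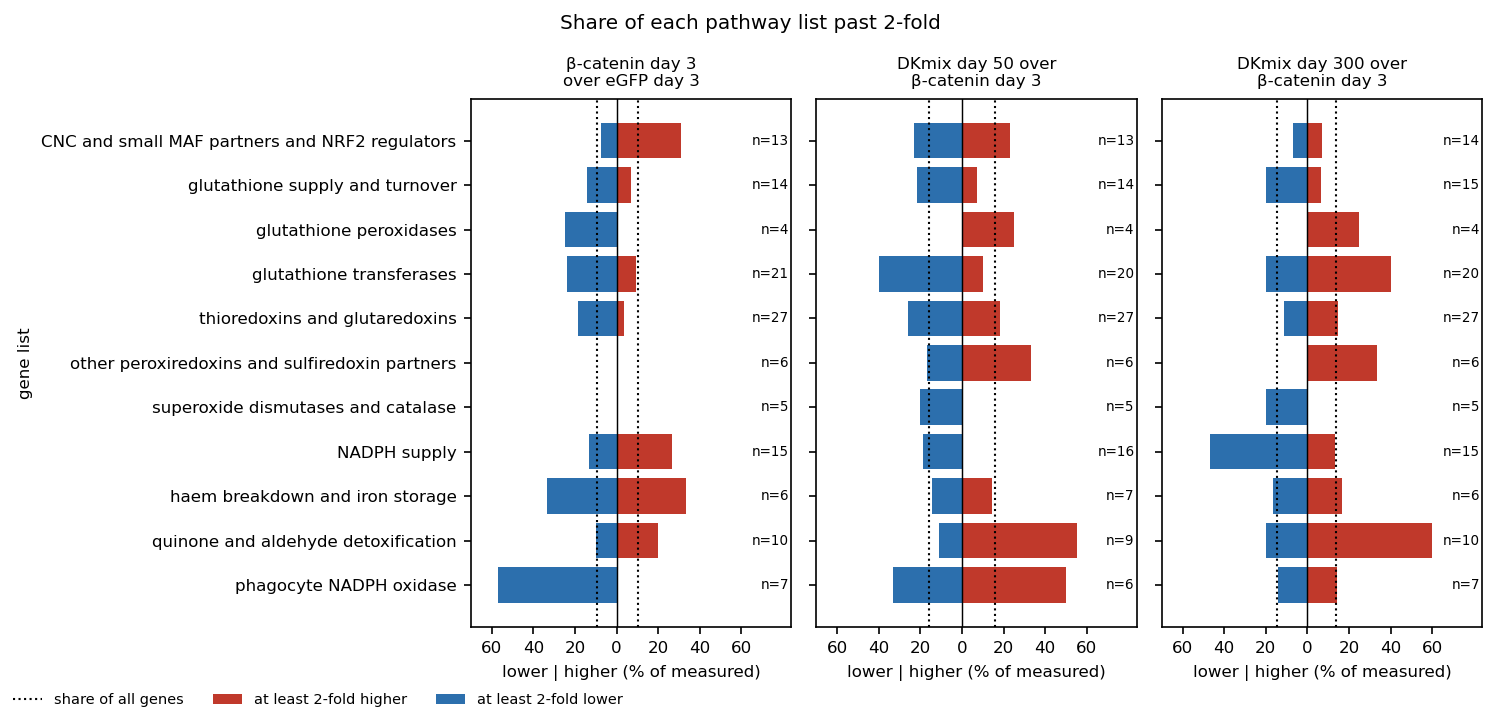
Share of the measured genes of each pathway list that were at least 2-fold higher (right) or lower (left), in percent. The left panel sets β-catenin over eGFP at day 3, and the others set each DKmix culture over β-catenin day 3. Dotted lines give the shares over all genes and n the genes measured; the quinone and aldehyde list, with 5 of 9 and 6 of 10 higher, reaches farthest right in the DKmix panels.

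Genes with the most similar course were sought for the 5 antioxidant genes that were above the floor on every array with a range of 2-fold or more. Likeness was the distance between log2 values, each centred on its own mean over the 4 arrays, among 7573 genes above the floor on every array. Nearest to Nqo1 were Naglu at 0.125, S100a10 at 0.126 and Armcx3 at 0.138, and 125 genes lay within 0.5. Nearest to Gsr were Rps27 at 0.072, Ebna1bp2 at 0.1 and Mrps28 at 0.142, with 39 genes within 0.5. Nearest to Txnrd1 was Fndc3a at 0.021, with 51 within 0.5. Nfe2l2 lay closest to Ccni at 0.064, with 231 within 0.5, and Srxn1 to Metrn at 0.069, with 189. Over 4 arrays many genes come this close, so the likeness is a description only.

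The array check of β-catenin itself rests on 3 Ctnnb1 probe sets, with ratios of β-catenin over eGFP day 3 of 0.949, 5.93 and 2.26. The brightest, at 4492.3 in β-catenin and 4732.4 in eGFP cells, did not separate the labelled groups, and whether any of them covers the sequence carried by the retrovirus is not given in the sources used here.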

How the data were processed

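Each array was deposited as linear signal intensities of its probe sets. The submitters' processing notes name MAS5. The sources used here do not state its version, detection calls or a genome build. The 45101 probe sets of each array had the same trimmed mean (2% off either end), so no further scaling was applied. From these deposited intensities, 34945 probe sets with 1 symbol in the platform annotation, controls left out, gave 18193 genes, and 932 with several symbols were given no name. Values were floored at 48.3, log2 ratios taken and calls made at 2-fold in Python 3.11.15 with numpy 2.4.6, pandas 2.3.3 and statsmodels 0.14.6. Array files from the scanner were not used here. With 1 array per group there was no test. The calculations were checked on simulated data.

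The antioxidant genes, lists and settings were chosen with earlier results of these data known. Every antioxidant gene is named with all its probe sets. From each other list, up to 4 genes per comparison were named by the size of their ratio past 2-fold. Other probe sets of pathway genes, the genes separated between DKmix and day 3 arrays, the stem cell markers named and the motif TGAGTCA were chosen after values or sequences were seen. The 7 alternatives were quantile normalization, lowess centring (fraction 0.3), hybridisation control scale, floors of 11.0 and 134.6, averaging a gene's probe sets, and dropping those of the _s_at and _x_at kinds.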

Additional observations from a re-analysis of the deposited data

How the results depend on the processing

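Quantile normalization and lowess centring left all 45 single-gene log2 ratios within the probe set SD, and the hybridisation control scale moved 16 of them. On that scale the calls among the 9 genes, higher and lower, were 1 and 6 for DKmix day 50 over β-catenin day 3, 0 and 3 for DKmix day 300 over β-catenin day 3, 1 and 4 for DKmix day 50 over eGFP day 3, and 0 and 2 for both DKmix over both day 3 arrays. Quantile normalization left 1 higher for DKmix day 300 over β-catenin day 3 and 0 for both DKmix arrays, where Nqo1 no longer reached 2-fold. The floor of 134.6 left 0 lower for β-catenin over eGFP and 1 higher for DKmix day 50 over β-catenin day 3, with Hmox1 lost. With the mean of all probe sets there were 2 higher and 2 lower for β-catenin over eGFP, 1 lower for DKmix day 50 and 1 higher and 0 lower for DKmix day 300 over β-catenin day 3, 2 higher for DKmix day 50 over eGFP, and 0 lower for both DKmix arrays. Without _s_at and _x_at probe sets there was 1 lower for DKmix day 50 over β-catenin day 3 and 0 higher for DKmix day 300 over day 50. Srxn1 in DKmix day 50 over β-catenin day 3 changed sign, to 0.23 with the mean of all probe sets and 0.06 without the shared ones. The calls of Txnrd1 for β-catenin over eGFP, of Gsr for DKmix day 50 over β-catenin day 3, and of Nqo1 and Gsr for DKmix day 50 over eGFP held under all 7 alternatives. Some alternatives could not undo these calls. Nqo1 has 1 probe set, so averaging left it as it was. The probe sets that stand for these 3 genes are not of the _s_at or _x_at kind. The control scale shifts of −0.94 and −0.54 lower Gsr further, and that of 0.40 raises Txnrd1 further.

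Over all genes, calls on the deposited scale and on the hybridisation control scale, higher and lower, were 1365 and 1259 against 3124 and 1005 for β-catenin over eGFP, 1773 and 1828 against 559 and 6049 for DKmix day 300 over β-catenin day 3, 2151 and 2071 against 1030 and 3730 for DKmix day 50 over eGFP, and 425 and 410 against 139 and 1524 for both DKmix arrays. For DKmix day 50 over β-catenin day 3 they were 2208 and 2162 against 700 and 5593. In the comparisons of 2 arrays the floor of 11.0 gave 3528 to 4472 higher, and that of 134.6 gave 604 to 1263. The floor of 134.6 gave 542 lower for β-catenin over eGFP and 1129 higher for DKmix day 50 over β-catenin day 3. Without _s_at and _x_at probe sets 2220 were lower for DKmix day 50 over β-catenin day 3. In that setting 2077 were higher for DKmix day 300 over day 50. The cause of these shifts was not tested. No paired analysis was possible because each group held 1 array, and for the same reason no array could be left out. Signals near the floor, those of Hmox1 and the weaker Nfe2l2, Gclm and Srxn1 probe sets, limit what can be read from them.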
